A study of Mus musculus with 9 samples.

Results

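The genes described here make up the DNA replication machinery and the supply of its nucleotides in mouse Lewis lung carcinoma cells. They are 44 named genes, taken from the array table by gene symbol, and 43 of them were measured among 19505 genes in all. Mcm7 was not analysed here, since no feature carried that symbol. The 43 genes fall into 10 roles: origin recognition and licensing, the MCM helicase, helicase activation, polymerases and primase, sliding clamp and clamp loader, single-strand binding, Okazaki fragment maturation, nucleotide supply, chromatin assembly with methylation copying, and cyclin E. Each of the 43 was read by 1 feature. The cells were the 3LL line, a cultured Lewis lung carcinoma (LLC) line that carries GFP, on the C57/BL6 strain, in 3 groups of 3 arrays. The dish group was kept in monolayer culture for 7 days. The subcutaneous and lung groups were GFP-positive cells recovered 7 days after the line was placed under the skin or into the lung. The series' own text names the lung setting "BLM lungs" without spelling out the abbreviation, and the labels give neither the age of the host mice nor whether each array stands for a mouse of its own. All groups share the GFP label and the parent line, so the dish group is the untransplanted form of the same cells.

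Before S phase, the origin recognition complex, Cdc6 and Cdt1 load the ring of MCM proteins onto DNA, and geminin stops Cdt1 from loading it again after replication has begun. Cyclin E with its kinase, and then Cdc45, the GINS proteins and Mcm10, turn the loaded ring into a moving helicase, behind which primase, the replicative polymerases, the PCNA clamp and its RFC loader copy the strands. Ribonucleotide reductase and the thymidylate enzymes supply the precursors, and many of these genes are known targets of E2F transcription factors, whose activity is held back by the retinoblastoma family of pocket proteins.

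Promoter sequences are shown because E2F sites are the best known feature that such genes share in their control regions, and the rule that chose the genes did not use them. Of the 43 measured genes, 34 had an entry in a RefSeq promoter table of assembly GRCm38.p6, each of 300 bases, from 250 before to 50 after an annotated start. The search was for the E2F letters TTTCCCGC, TTTGGCGC, TTTCGCGC and TTTGCCGC, and for the letters CCAAT, on both strands. An E2F match stood in 12 of the 34 genes (35.3%), against 531 of 15691 measured genes with an entry (3.38%). A CCAAT match stood in 21 of the 34 (61.8%), against 42.2% of the 15691. No E2F match overlapped a CCAAT match, and 2 pairs of E2F matches overlapped each other. The promoters of 6 genes are printed 5′ to 3′ on the gene's strand, with the E2F matches in capitals: 4 from genes that fell under the skin (Orc1, Cdc6, Mcm5, Pold1) and 2 from genes not called in any comparison as deposited (Mcm6, Pola1). Orc1 is at chr4:108579204-108579503 (plus strand), Cdc6 at chr11:98907901-98908200 (plus), Mcm5 at chr8:75109259-75109558 (plus), Pold1 at chr7:44548766-44549065 (minus), Mcm6 at chr1:128359656-128359955 (minus) and Pola1 at chrX:93632106-93632405 (minus).
Orc1: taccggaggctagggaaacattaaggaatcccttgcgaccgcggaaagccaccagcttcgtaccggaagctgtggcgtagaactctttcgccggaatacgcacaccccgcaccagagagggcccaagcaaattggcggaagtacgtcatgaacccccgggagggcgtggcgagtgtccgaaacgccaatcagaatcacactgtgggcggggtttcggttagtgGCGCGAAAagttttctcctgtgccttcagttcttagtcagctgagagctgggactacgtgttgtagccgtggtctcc
Cdc6: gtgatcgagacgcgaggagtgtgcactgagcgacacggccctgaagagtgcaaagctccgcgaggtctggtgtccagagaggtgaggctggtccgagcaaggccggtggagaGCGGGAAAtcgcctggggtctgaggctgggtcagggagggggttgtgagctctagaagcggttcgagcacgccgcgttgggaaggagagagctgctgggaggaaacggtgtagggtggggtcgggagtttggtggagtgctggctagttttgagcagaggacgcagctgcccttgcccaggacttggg
Mcm5: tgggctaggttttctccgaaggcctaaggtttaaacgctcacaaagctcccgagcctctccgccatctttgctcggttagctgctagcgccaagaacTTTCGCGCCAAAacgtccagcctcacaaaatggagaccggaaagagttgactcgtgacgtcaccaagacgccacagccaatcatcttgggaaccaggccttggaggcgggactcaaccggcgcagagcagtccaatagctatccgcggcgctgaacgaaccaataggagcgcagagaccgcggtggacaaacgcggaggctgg
Pold1: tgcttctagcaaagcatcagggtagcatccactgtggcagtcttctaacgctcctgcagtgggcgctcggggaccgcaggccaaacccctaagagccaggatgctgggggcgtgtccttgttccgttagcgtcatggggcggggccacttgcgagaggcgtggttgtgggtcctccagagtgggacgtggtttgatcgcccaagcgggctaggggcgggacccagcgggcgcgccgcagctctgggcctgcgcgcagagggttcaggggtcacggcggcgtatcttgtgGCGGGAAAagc
Mcm6: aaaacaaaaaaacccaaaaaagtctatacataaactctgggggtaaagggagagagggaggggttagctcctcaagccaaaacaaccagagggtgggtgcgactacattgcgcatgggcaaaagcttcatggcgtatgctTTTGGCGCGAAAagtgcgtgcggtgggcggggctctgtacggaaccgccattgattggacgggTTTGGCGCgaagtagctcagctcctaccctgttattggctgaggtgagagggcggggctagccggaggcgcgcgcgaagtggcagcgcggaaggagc
Pola1: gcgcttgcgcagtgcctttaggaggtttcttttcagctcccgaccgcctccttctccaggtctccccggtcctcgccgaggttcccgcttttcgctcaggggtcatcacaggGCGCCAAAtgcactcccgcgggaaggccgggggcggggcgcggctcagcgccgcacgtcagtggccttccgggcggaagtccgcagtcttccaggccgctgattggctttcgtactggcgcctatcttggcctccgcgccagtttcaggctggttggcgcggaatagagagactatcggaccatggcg

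An E2F match was found in called and in uncalled genes. Mcm6 holds more of these letters than any of the other 5 promoters printed, with an overlapping pair and a separate match, and its level was not called in any comparison. Among the 34 genes, a match stood in 8 of the 21 that fell from dish to subcutaneous and in 4 of the 13 that were not called. For lung against subcutaneous, a match stood in 6 of the 13 higher genes and in 6 of the 21 not called. These are matches of letters in a short window and carry no test.

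Values are log2 signals as the authors deposited them, and differences between groups are differences of log2 signals, where 1 unit is a doubling. A gene was called when limma's adjusted p, taken over all 19505 genes, was under 0.05, and "rose", "fell" and "changed" are kept for called genes. Background was read as the 90th percentile of the negative control features of each array (7.20 to 7.73), and 35 to 42 of the 43 genes lay above it per array. The upper quartile over genes was 8.20 to 8.68 and highest on the lung arrays, so a change shared by most transcripts cannot be told apart from a difference in scaling. Over all genes, 61.4% of the calls in lung against subcutaneous were higher in lung, which became 53% after quantile normalization and 27.7% after aligning the upper quartiles. For lung against dish the same share went from 71% to 54.5% and 24%, and for subcutaneous against dish it was 49.8%, 49% and 47.2%. Aligning the upper quartiles moved the median difference of all genes by -0.31 in lung against subcutaneous and by -0.34 in lung against dish. The RNA integrity number (RIN) in the labels was 8.4 to 8.6 for dish, 7.5 to 8.6 for subcutaneous and 7.9 to 8.3 for lung.

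Marker genes of other cells were not at the same level in the groups. Of 10 alveolar type II and airway markers, 3 to 6 were above background per lung array against 0 or 1 elsewhere, with list means of 7.12 to 9.62 in lung and no higher than 4.997 in the other groups. The surfactant gene Sftpc read 13.45 to 16.37 in lung and 4.95 to 5.83 elsewhere. Lung replicate 3 stood apart with the highest airway and alveolar mean (9.62, against 7.12 and 7.18 in the other 2). Of 7 fibroblast markers, 3 or 4 were above background per subcutaneous array, 1 or 2 per lung array and 0 to 2 per dish array. Decorin (Dcn) read 16.37 to 17.09 under the skin, 10.53 to 13.94 in lung and 6.85 to 7.32 in the dish, while the collagen genes Col1a1, Col1a2 and Col3a1 were below background on every array. None of 7 leukocyte markers and none of 6 endothelial markers was above background on any array. Of 5 LLC markers, 3 or 4 were above background per array, and Epcam was below it on all 9. The other 4 rose from dish to subcutaneous (Krt8 by 1.63, Vim by 1.61, Cd44 by 1.49, and Krt18, below background in the dish, by at least 12.1-fold), and Krt18 and Vim were lower in lung than under the skin, with differences of -2.98 and -1.53. The part of this in the results was not tested. The part of these other cells in the results was not tested, and in bulk samples fewer cells of a type and less RNA per cell cannot be told apart.

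Replication genes were lower in the subcutaneous cells than in the dish. The clearest cases were Mcm5 (a helicase subunit), Cdc6 (a helicase loader), Mcm10 (an activator of the helicase), Uhrf1 (which brings the maintenance methyltransferase to newly copied DNA) and Fen1 (which trims Okazaki fragments), each 1.88 to 2.36 lower. In this comparison 23 of the 43 genes fell (53.5%) and 0 rose, against 6.47% of all genes lower and 6.41% higher. Among the 6311 genes above background on all arrays of a group, 15.2% fell. The 3 subcutaneous values lay below all 3 dish values for 32 of the 43 genes, as they did for 15.1% of all genes, and above them for 1 gene, against 14.2%. Of the 6311 genes above background, 1799 lay below and 1639 above in this way. The median difference of the 43 was -0.98, against -0.01 for all genes, and it was -1.04 after quantile normalization and -1.02 with aligned upper quartiles. With RIN as a covariate the count of genes that fell was 13.

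In lung, replication genes stood above the subcutaneous level. Pold1 (the catalytic subunit of polymerase delta), Cdc6, Fen1, geminin (Gmnn) and Pole (the catalytic subunit of polymerase epsilon) led, each 1.55 to 2.32 higher in lung. In this comparison 16 of the 43 genes were called higher (37.2%) and 0 lower, against 9.21% of all genes higher and 5.79% lower. Among the 6311 genes above background on all arrays of a group, 21.8% were higher. All 3 lung values lay above all 3 subcutaneous values for 22 of the 43 genes and below them for 4, against 15.8% and 16.8% of all genes. Of the 6311 genes above background, 2077 lay above and 1210 below in this way. The median difference was 0.61, against -0.07 for all genes, and it kept its sign at 0.50 after quantile normalization and 0.31 with aligned upper quartiles. The count was 10 higher and 2 lower (Pola1 and Ccne2) with aligned upper quartiles, and 8 higher without lung replicate 1. The contrast with subcutaneous shares its subcutaneous arrays with the comparison to the dish, so the 2 sets of values are not independent.

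Between lung and dish 4 of the genes were called. Ccne2 (cyclin E2), Rfc5 (a clamp loader subunit), Rpa1 (the large subunit of the single-strand binding protein) and Mcm5 fell by 0.91 to 1.56, which makes 4 of 43 (9.3%) lower against 1.97% of all genes. None rose, against 4.81% of all genes. Among the 6311 genes above background on all arrays of a group, 3.68% fell and 11.9% rose. An unadjusted p under 0.05 was found for 16 of the 43 and for 2380 of those 6311. These shares are near each other, so that count says little about the 43 genes. The same share of the 6311 belongs beside the counts of unadjusted p by role given below. The 3 lung values lay above all dish values for 3 genes and below them for 20, against 13.4% and 15% of all genes. Of the 6311 genes above background, 1790 lay above and 937 below in this way. The median difference was -0.35, with -0.07 for all genes, -0.50 after quantile normalization and -0.69 with aligned upper quartiles. The number lower was 11 after quantile normalization, 13 with aligned upper quartiles, 10 with dim genes left out, 10 with array weights and 7 with an intensity trend, so it depended on the setting. It was 2 with RIN as a covariate, 2 without dish replicate 1, dish replicate 2, lung replicate 1 or lung replicate 3, and 7 without subcutaneous replicate 3.

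**Figure D1:**
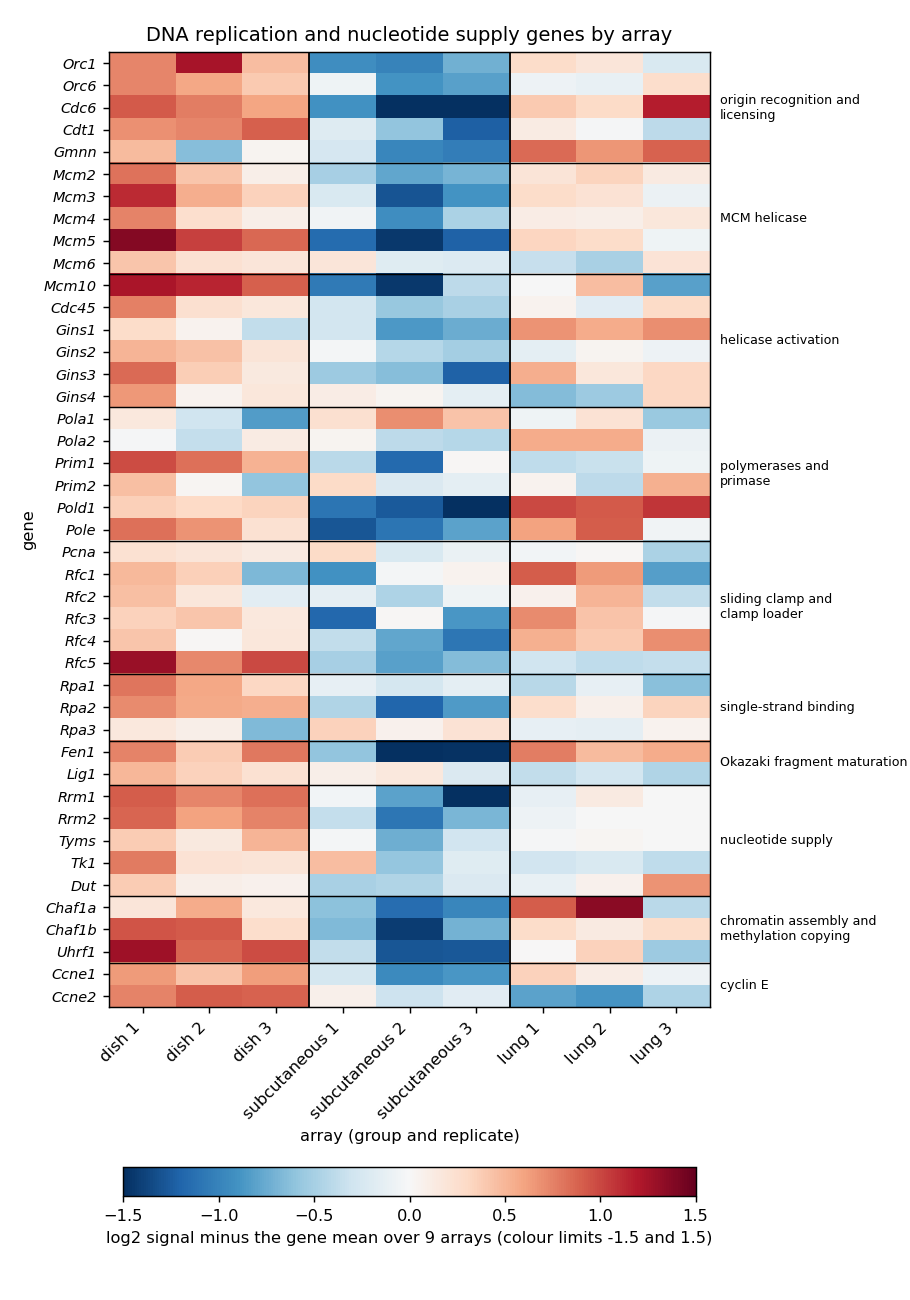
Heatmap of the 43 measured genes (rows, grouped by role) on the 9 arrays (columns). Colour gives the log2 signal minus the gene's mean over the 9 arrays, limited at -1.5 and 1.5. The subcutaneous columns are mostly blue, the dish columns mostly red and the lung columns in between, with Ccne2 blue and Pold1 red in lung.

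**Figure D2:**
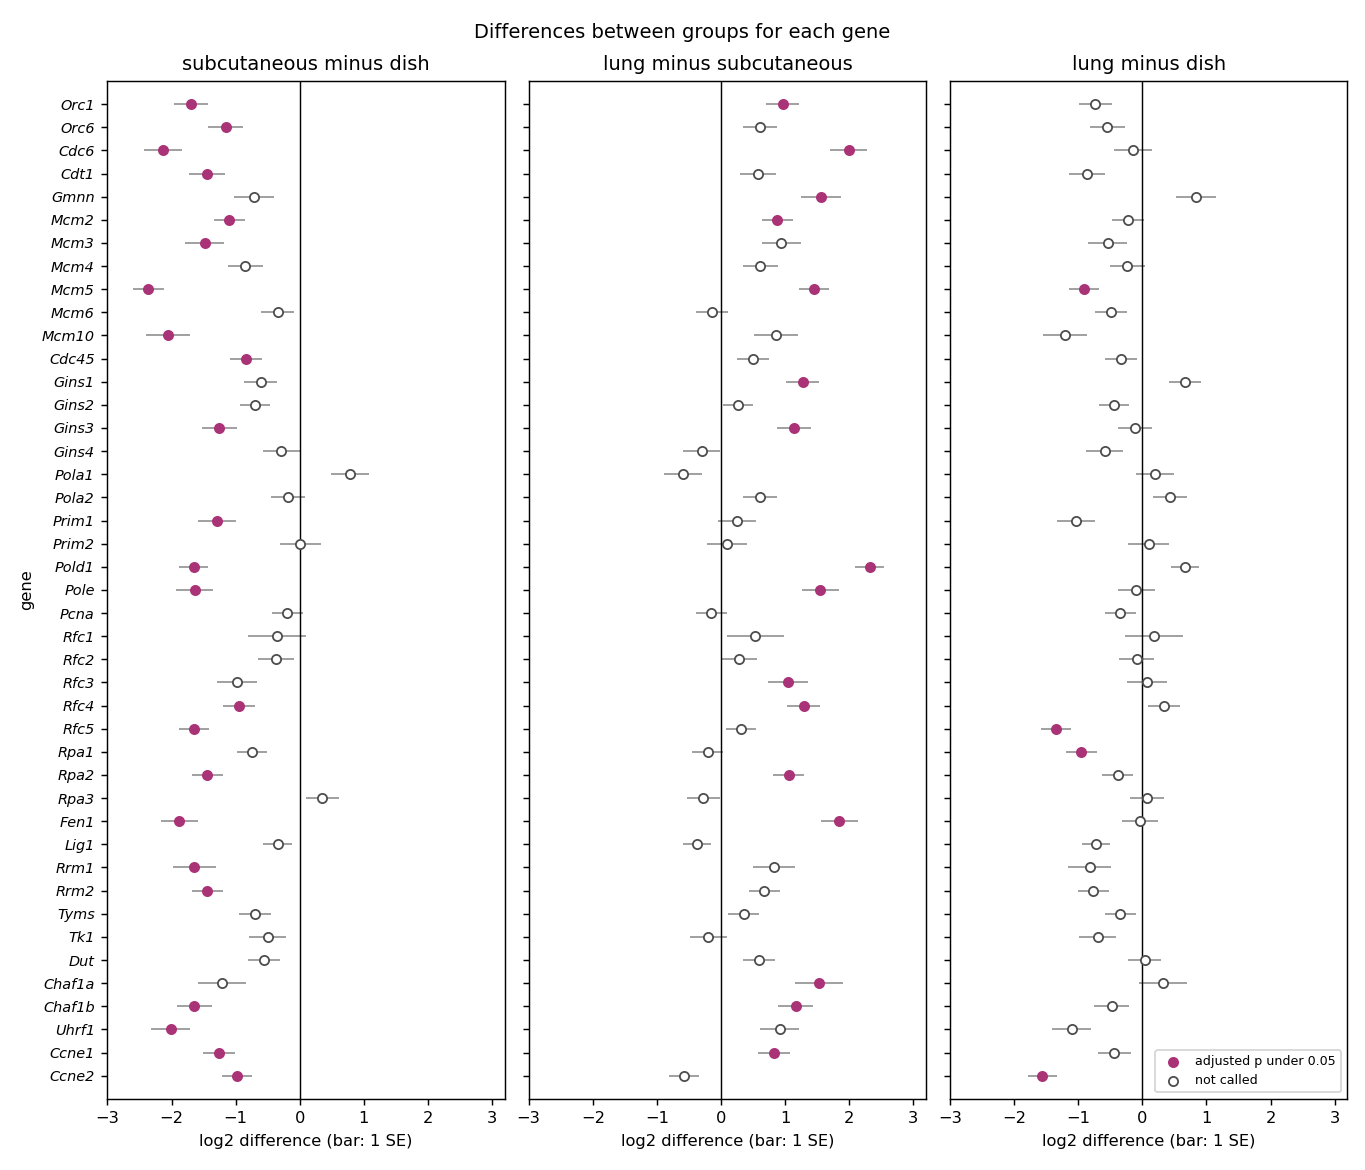
Difference of log2 signal between groups for each of the 43 genes, with bars of 1 SE from the limma fit over 3 arrays a group. Filled points passed an adjusted p under 0.05: 23 lower in subcutaneous than dish, 16 higher in lung than subcutaneous and 4 lower in lung than dish. Points of genes below background in a group (Orc1, Cdc45, Gins3, Rfc3 and Tk1 under the skin, Rfc3 also in the dish, Tk1 also in lung) rest on background on that side.

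Genes of origin recognition and licensing were low under the skin. Of the 5, 4 fell from dish to subcutaneous (Orc1, Orc6, Cdc6, Cdt1) and 3 were higher in lung than under the skin (Orc1, Cdc6, Gmnn), while 0 changed between lung and dish, where 3 had an unadjusted p under 0.05. Cdc6, which brings the MCM ring to the origin, read 10.03, 9.88 and 9.70 in the dish, 8.20, 7.52 and 7.49 under the skin and 9.50, 9.40 and 10.29 in the lung. The subcutaneous arrays were lowest without overlap and 1 of them was below background, while lung and dish overlapped. It fell by 2.13 (SE 0.29, adjusted p = 0.000413) from dish to subcutaneous and was 1.99 higher in lung than under the skin (SE 0.29, adjusted p = 0.00094). Orc1, the large subunit of the origin recognition complex, read 7.70, 8.21 and 7.43 in the dish, 6.04, 5.97 and 6.25 under the skin and 7.25, 7.16 and 6.74 in the lung. All 3 subcutaneous arrays were below background, and 2 dish arrays and 1 lung array were above it. The fall of Orc1 from dish to subcutaneous (adjusted p = 0.000871) is therefore given as at least 1.21-fold, from the dish mean over the background limit of the subcutaneous arrays. The higher lung value of Orc1 (adjusted p = 0.0263) has no such bound, since the lung mean itself lay under that limit. Geminin, the inhibitor of Cdt1, was highest in lung. Gmnn read 11.09, 9.97 and 10.65 in the dish, 10.36, 9.63 and 9.58 under the skin and 11.46, 11.27 and 11.50 in the lung. The lung arrays were the highest of all 9, and dish and subcutaneous overlapped. It was 1.55 higher in lung than under the skin (SE 0.31, adjusted p = 0.00526), and 0.84 higher than in the dish, which did not pass (adjusted p = 0.129). Orc6 and Cdt1, the licensing factor that geminin binds, fell by 1.16 and 1.44 from dish to subcutaneous (adjusted p = 0.0118 and 0.0042), and their lung means lay between the other groups with no call.

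Some subunits of the MCM ring were called and others were not. Of the 5 measured, Mcm2, Mcm3 and Mcm5 fell from dish to subcutaneous, Mcm2 and Mcm5 were higher in lung than under the skin, and Mcm5 fell from dish to lung. Mcm5 read 14.85, 14.51 and 14.34 in the dish, 12.32, 12.03 and 12.27 under the skin and 13.80, 13.75 and 13.42 in the lung. The 3 groups did not overlap, with lung between dish and subcutaneous. Mcm5 fell by 2.36 from dish to subcutaneous (SE 0.24, adjusted p = 4.28e-05), was 1.45 higher in lung than under the skin (adjusted p = 0.00173) and fell by 0.91 from dish to lung (adjusted p = 0.038). It was the 1 gene of the 43 called in all 3 comparisons, as were 0.103% of all genes with the same directions, and its call against the dish was lost when any dish or lung array was left out. Mcm2 read 14.10, 13.69 and 13.37 in the dish, 12.78, 12.50 and 12.59 under the skin and 13.47, 13.61 and 13.41 in the lung. The subcutaneous arrays were the lowest and the lung arrays lay within the dish range. Mcm2 was 0.88 higher in lung than under the skin (SE 0.24, adjusted p = 0.0295), a call lost without lung replicate 1 or 2, without subcutaneous replicate 2 or 3, with RIN as a covariate and with aligned upper quartiles. Mcm3 fell by 1.48 from dish to subcutaneous (adjusted p = 0.00584) and was 0.94 higher in lung without passing (adjusted p = 0.0543). Mcm4 was 0.85 lower under the skin than in the dish (adjusted p = 0.0595), and Mcm6 0.35 lower (adjusted p = 0.436), and neither was called in any comparison.

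Among the 6 helicase activators, 3 fell from dish to subcutaneous (Mcm10, Cdc45, Gins3) and 2 were higher in lung than under the skin (Gins1, Gins3), with 0 called between lung and dish, where 2 had an unadjusted p under 0.05. Mcm10 read 10.61, 10.53 and 10.29 in the dish, 8.33, 7.94 and 9.0 under the skin and 9.39, 9.85 and 8.58 in the lung. All dish arrays were above all others, and lung overlapped subcutaneous through lung replicate 3. Mcm10 fell by 2.05 from dish to subcutaneous (SE 0.34, adjusted p = 0.00145), and its lung mean was 1.20 below the dish, which did not pass (adjusted p = 0.0528). The 4 GINS subunits form 1 complex. The group means of Gins2 and Gins3 had the same order (dish, lung, subcutaneous), while Gins1 had its highest mean in lung and Gins4 its lowest. The differences of Gins1 and Gins4 from the dish were not called, so different orders within the complex are not shown. Gins1 read 13.15, 12.92 and 12.50 in the dish, 12.60, 12.01 and 12.13 under the skin and 13.55, 13.44 and 13.57 in the lung. All lung arrays were above all others, while dish and subcutaneous overlapped. Gins1 was 1.27 higher in lung than under the skin (SE 0.25, adjusted p = 0.00518), and the difference of 0.66 from the dish did not pass (adjusted p = 0.143). Gins3 read 8.61, 8.12 and 7.91 in the dish, 7.21, 7.12 and 6.54 under the skin and 8.30, 7.93 and 8.06 in the lung. Its subcutaneous arrays were all below background, so it was at least 1.63-fold lower there than in the dish (adjusted p = 0.00779) and at least 1.51-fold higher in lung than there (adjusted p = 0.0134). Gins2 was 0.70 lower under the skin than in the dish and Gins4 0.29 lower, with no call in any comparison, and the lung mean of Gins4 was the lowest of its 3 groups. Cdc45, the helicase partner of the MCM ring and GINS, was also below background on all subcutaneous arrays and at least 1.22-fold lower there than in the dish (adjusted p = 0.0427).

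The polymerases gave the largest difference of all 43 genes between lung and subcutaneous cells. Of the 6 polymerase and primase genes, Pold1, Pole and Prim1 fell from dish to subcutaneous, Pold1 and Pole were higher in lung than under the skin, and 0 changed between lung and dish, where 2 had an unadjusted p under 0.05. Pold1 read 12.06, 12.01 and 12.04 in the dish, 10.61, 10.45 and 10.09 under the skin and 12.70, 12.63 and 12.78 in the lung. The lung arrays were above every dish array and the subcutaneous arrays below every dish array. Pold1 was 2.32 higher in lung than under the skin (SE 0.23, adjusted p = 9.61e-05) and fell by 1.66 from dish to subcutaneous (SE 0.23, adjusted p = 0.000383), and both calls were kept in all 17 alternative settings. Its lung mean was 0.67 above the dish, which did not pass (adjusted p = 0.1). Pole, which copies the leading strand, read 11.03, 10.87 and 10.42 in the dish, 8.91, 9.10 and 9.39 under the skin and 10.79, 11.10 and 10.14 in the lung. The subcutaneous arrays were lowest without overlap, and lung and dish overlapped. Pole was 1.55 higher in lung than under the skin (SE 0.29, adjusted p = 0.00355) and fell by 1.64 from dish to subcutaneous (adjusted p = 0.00209). The catalytic primase subunit Prim1 was low in both transplanted groups. Prim1 read 12.46, 12.31 and 12.01 in the dish, 11.09, 10.33 and 11.51 under the skin and 11.10, 11.16 and 11.42 in the lung. Both transplanted groups lay below every dish array and overlapped each other. Prim1 fell by 1.29 from dish to subcutaneous (SE 0.30, adjusted p = 0.0114), and its lung mean was 1.03 below the dish without passing (adjusted p = 0.0545). Pola1, the catalytic subunit of polymerase alpha, had its highest mean under the skin (0.79 above the dish, adjusted p = 0.111), and Pola2 and the large primase subunit Prim2 differed by up to 0.60 over the 3 comparisons, with no call.

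**Figure D3:**
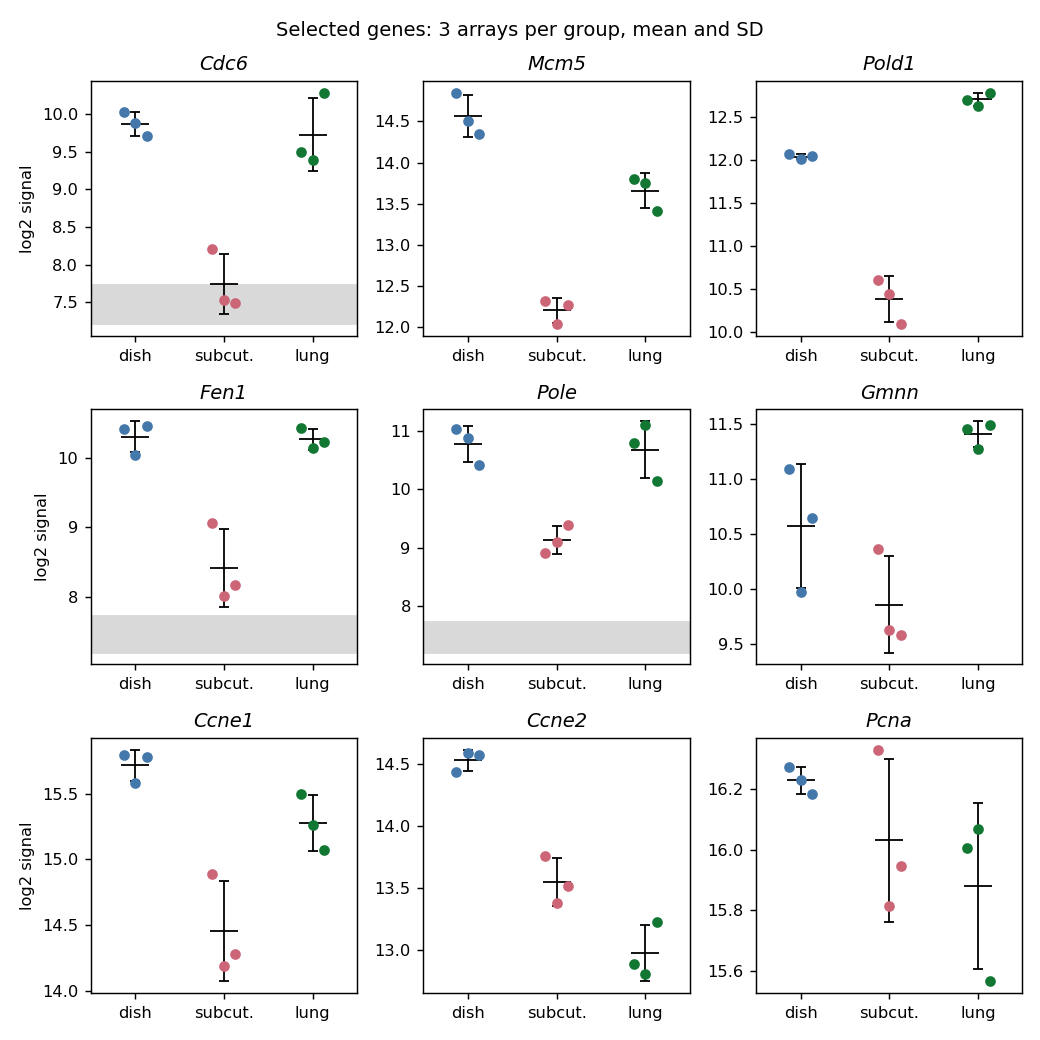
Log2 signals of 9 of the genes on the 3 arrays of each group, with the mean (horizontal line) and SD (bars). The grey band is the range over arrays of the 90th percentile of the negative controls, and each panel has its own axis that does not start at 0. Cdc6, Mcm5, Pold1, Fen1 and Pole are lowest under the skin, Ccne2 is lowest in lung, and the groups of Pcna overlap.

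The sliding clamp itself was not called while 2 subunits of its loader fell under the skin. Pcna, the clamp, read 15.57 to 16.33 over the 9 arrays and its group means differed by up to 0.35 over the 3 comparisons. Rfc4 and Rfc5 fell from dish to subcutaneous, Rfc3 and Rfc4 were higher in lung than under the skin, and Rfc5 fell from dish to lung. Rfc5 read 11.36, 10.78 and 11.06 in the dish, 9.57, 9.25 and 9.42 under the skin and 9.76, 9.69 and 9.70 in the lung. The dish arrays were more than 1 unit above both transplanted groups, and the lung arrays were slightly above the subcutaneous ones. Rfc5 fell by 1.66 from dish to subcutaneous (SE 0.23, adjusted p = 0.000475) and by 1.35 from dish to lung (SE 0.23, adjusted p = 0.00491), and its difference of 0.31 between lung and subcutaneous did not pass (adjusted p = 0.418). Rfc4 read 9.56, 9.15 and 9.31 in the dish, 8.77, 8.36 and 8.05 under the skin and 9.67, 9.53 and 9.84 in the lung. The subcutaneous arrays were lowest, and lung overlapped the dish at its upper end. Rfc4 was 1.29 higher in lung than under the skin (SE 0.25, adjusted p = 0.00465) and fell by 0.95 from dish to subcutaneous (adjusted p = 0.0241). Rfc3 read 7.23, 7.30 and 7.05 in the dish, 5.71, 6.91 and 6.01 under the skin and 7.59, 7.32 and 6.87 in the lung. It was above background on 2 lung arrays and on no other, subcutaneous replicate 2 overlapped the lung, and no fold is given for its call (adjusted p = 0.0388). Rfc1, the large loader subunit, had the largest SD of the 43 genes within the lung group (0.93), with 11.09, 10.82 and 9.35, and neither it nor Rfc2 was called.

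Of the 3 subunits of the single-strand binding protein RPA, Rpa2 was called in both comparisons with the subcutaneous cells, Rpa1 between lung and dish, and Rpa3 in none. Rpa2 read 10.77, 10.62 and 10.60 in the dish, 9.60, 8.86 and 9.20 under the skin and 10.32, 10.13 and 10.38 in the lung. The 3 groups did not overlap, with lung in the middle. Rpa2 fell by 1.44 from dish to subcutaneous (SE 0.24, adjusted p = 0.00162) and was 1.05 higher in lung than under the skin (SE 0.24, adjusted p = 0.0118), a call lost under both other scalings and without lung replicate 1. Rpa1 read 11.67, 11.46 and 11.19 in the dish, 10.75, 10.62 and 10.73 under the skin and 10.46, 10.75 and 10.25 in the lung. The dish arrays were highest, and the transplanted groups overlapped. Rpa1 fell by 0.95 from dish to lung (SE 0.24, adjusted p = 0.03), lost without dish replicate 1 or 2, without lung replicate 1 or 3 or with RIN as a covariate, and was 0.74 lower under the skin without passing (adjusted p = 0.0571). The smallest subunit, Rpa3, read 12.94 to 13.94 over the 9 arrays and had no call, with differences of up to 0.35.

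Of the 2 genes of Okazaki fragment maturation, the nuclease Fen1 changed and the ligase did not pass. Fen1 read 10.41, 10.04 and 10.44 in the dish, 9.06, 8.02 and 8.18 under the skin and 10.42, 10.14 and 10.22 in the lung. The subcutaneous arrays were lowest without overlap, and the lung arrays lay among the dish arrays. Fen1 fell by 1.88 from dish to subcutaneous (SE 0.29, adjusted p = 0.000823) and was 1.84 higher in lung than under the skin (SE 0.29, adjusted p = 0.00127), with a difference of -0.04 between lung and dish (adjusted p = 0.961). Lig1, which seals the fragments, was dim at 7.05 to 8.0, with its lowest mean in lung and no call.

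Genes of nucleotide supply were called between dish and subcutaneous cells, with 0 of 5 called in the other comparisons, where 3 had an unadjusted p under 0.05 in each. So had 3175 of the 6311 genes above background in lung against subcutaneous and 2380 in lung against dish, so 3 of 5 says little. Of the 5 genes, the ribonucleotide reductase subunits Rrm1 and Rrm2 fell from dish to subcutaneous, by 1.64 (SE 0.33, adjusted p = 0.00518) and 1.44 (SE 0.24, adjusted p = 0.00151). In lung they were 0.82 and 0.67 above subcutaneous, which did not pass (adjusted p = 0.117 and 0.08). Rrm1 ranged from 10.27 to 11.86 under the skin, and its lung values of 11.77 to 12.03 overlapped that range. Rrm2 read 10.13 to 10.85 under the skin and 11.13 to 11.20 in lung, without overlap. Thymidylate synthase (Tyms) read 13.02 to 14.27 over all arrays and had no call, and the dUTP-removing enzyme Dut had none either. Thymidine kinase 1 (Tk1) was above background on 1 dish array and on no other, so its level is not measured well here. Pcna and Tyms have pseudogene copies in the RefSeq table, and whether these add to their signal was not tested.

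In chromatin assembly, the 2 large subunits of the histone chaperone CAF-1 were higher in lung than under the skin. Chaf1b read 9.75, 9.73 and 9.08 in the dish, 8.14, 7.38 and 8.10 under the skin and 9.09, 8.95 and 9.08 in the lung. The subcutaneous arrays were lowest without overlap. Chaf1b was 1.16 higher in lung than under the skin (SE 0.28, adjusted p = 0.0137), a call lost under both other scalings and without subcutaneous replicate 2 or lung replicate 1, and fell by 1.64 from dish to subcutaneous (adjusted p = 0.00161). Chaf1a read 10.04, 10.41 and 10.02 in the dish, 9.24, 8.72 and 8.88 under the skin and 10.77, 11.21 and 9.46 in the lung. Lung replicates 1 and 2 were the highest of all arrays, and lung replicate 3 was below the dish. Chaf1a was 1.53 higher in lung than under the skin (SE 0.37, adjusted p = 0.0155), a call lost without lung replicate 1 or 2 or subcutaneous replicate 2, and was 1.21 lower under the skin than in the dish without passing (adjusted p = 0.0505). Uhrf1 read 13.999, 13.60 and 13.71 in the dish, 12.36, 11.45 and 11.46 under the skin and 12.74, 13.08 and 12.19 in the lung. The dish arrays were above all others, and lung replicate 3 overlapped the subcutaneous range. Uhrf1 fell by 2.02 from dish to subcutaneous (SE 0.31, adjusted p = 0.000838), and its lung mean was 1.10 below the dish (adjusted p = 0.0504) and 0.91 above subcutaneous (adjusted p = 0.065), neither called.

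The 2 cyclin E genes, whose proteins activate the same kinase at the start of S phase, were lowest in different groups. Ccne1 read 15.79, 15.58 and 15.78 in the dish, 14.89, 14.19 and 14.28 under the skin and 15.50, 15.26 and 15.07 in the lung. The 3 groups did not overlap, with subcutaneous lowest. Ccne1 fell by 1.26 from dish to subcutaneous (SE 0.25, adjusted p = 0.00499) and was 0.82 higher in lung than under the skin (SE 0.25, adjusted p = 0.0441), a call kept in 8 of 17 alternative settings. Ccne2 read 14.43, 14.59 and 14.57 in the dish, 13.76, 13.38 and 13.51 under the skin and 12.88, 12.80 and 13.23 in the lung. The groups did not overlap here either, but lung was lowest. Ccne2 fell by 1.56 from dish to lung (SE 0.23, adjusted p = 0.00193), kept in all 17 settings, and by 0.98 from dish to subcutaneous (SE 0.23, adjusted p = 0.0126). Its difference of -0.58 between lung and subcutaneous was not called as deposited (adjusted p = 0.113), and was called with aligned upper quartiles, with dim genes left out and with an intensity trend.

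The commonest order of the group means was dish, then lung, then subcutaneous, in 24 of the 43 genes (55.8%), against 16.7% of all genes. Lung was above the dish and the dish above subcutaneous in 9 genes (20.9%, against 16.4% of all genes), and dish above subcutaneous above lung in 7 (16.3%, against 18.1%), both near the share over all genes. The 7 were Mcm6, Gins4, Lig1, Pcna, Rpa1, Tk1 and Ccne2. The subcutaneous mean was the lowest in 33 of the 43 genes, as it was in 43.6% of the 6311 genes above background. By calls, 11 genes were both lower under the skin than in the dish and higher in lung than under the skin with no call between lung and dish (Orc1, Cdc6, Mcm2, Gins3, Pold1, Pole, Rfc4, Rpa2, Fen1, Chaf1b and Ccne1), as were 3.71% of all genes. In 9 genes the fall under the skin was the 1 call (Orc6, Cdt1, Mcm3, Mcm10, Cdc45, Prim1, Rrm1, Rrm2 and Uhrf1), as in 1.93% of all genes. In 4 the higher lung value was the 1 call (Gmnn, Gins1, Rfc3 and Chaf1a), as in 3.53% of all genes. With the values as deposited, no call was made in any comparison for 15 genes (Mcm4, Mcm6, Gins2, Gins4, Pola1, Pola2, Prim2, Pcna, Rfc1, Rfc2, Rpa3, Lig1, Tyms, Tk1 and Dut), against 77.2% of all genes. A missing call does not show that these genes were equal in the groups.

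Arrays of a group also differed among themselves. Taken as the median over the 43 genes of the log2 signal minus the gene's mean, the dish arrays stood at 0.71, 0.41 and 0.22, the subcutaneous arrays at -0.28, -0.78 and -0.68 and the lung arrays at 0.06, 0.14 and -0.01. The groups did not overlap on this measure. RIN moved with it within the subcutaneous group, where replicate 1 had a RIN of 8.6 and replicates 2 and 3 had 7.5 and 7.8, and replicate 1 was the highest of its group in 33 of 43 genes (39% of the genes above background). It did not within the other groups. Lung replicate 2 had the lowest RIN of its group (7.9) and the highest median. Dish replicate 2 had the highest RIN of its group (8.6) and the middle median. Over all 43 genes, subcutaneous replicate 1 lay below every dish array for 33 and below every lung array for 26. The same was not counted over all genes, so it cannot be called particular to the 43. With RIN as a covariate the genes that fell from dish to subcutaneous numbered 13 in place of 23, and over all genes 606 in place of 1262. Dish replicate 1 was the highest of its group in 35 genes (58.8% of the genes above background). Within the lung group, replicates 1 and 2 exceeded replicate 3 by more than 0.5 in 9 genes, with the widest gaps for Rfc1 (1.60), Chaf1a (1.53) and Mcm10 (1.04), and fell short of it by more than 0.5 in 5, among them Cdc6 (-0.84) and Gins4 (-0.91). Gaps of this size were not counted over all genes either. Without lung replicate 3, 18 genes were called higher in lung than under the skin.

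**Figure D4:**
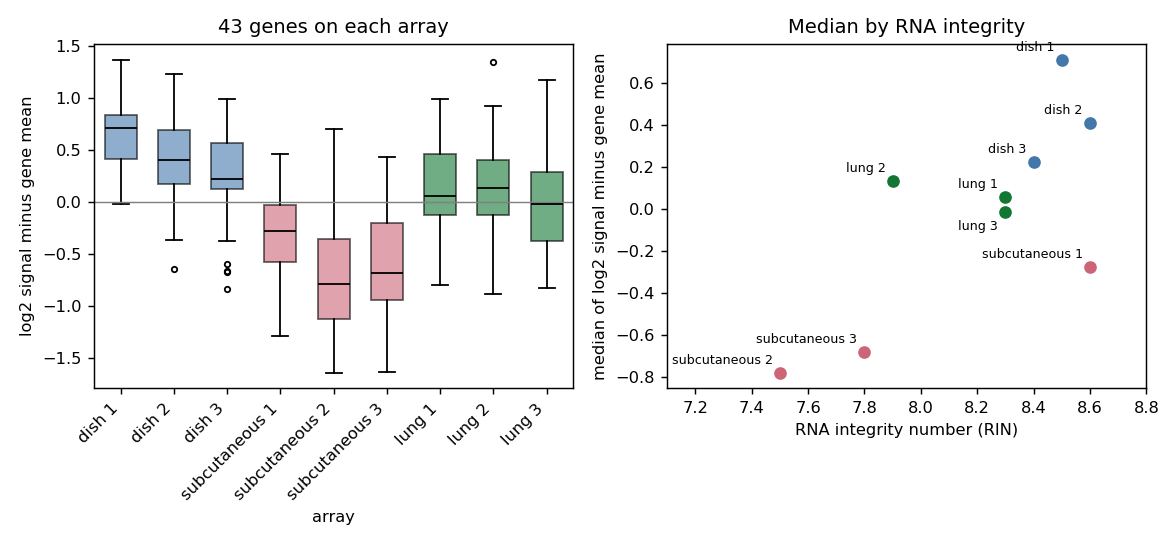
Left, boxes of the 43 genes on each array (log2 signal minus the gene's mean over the 9 arrays: median, quartiles, whiskers to 1.5 times the box, circles beyond). Right, the median of each array against its RNA integrity number from the labels. The subcutaneous medians of -0.28 to -0.78 lie below those of all other arrays.

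Of 32 other genes of the replication fork and the origin, 7 fell (21.9%) and 1 rose (3.12%) from dish to subcutaneous, against 15.2% and 15% of the 6311 genes above background, with a median of -0.39. The fork protection gene Timeless fell by 2.27 (adjusted p = 0.0116), the clamp loader gene Chtf18 by 1.53 and topoisomerase Top2a by 1.35, while the small polymerase delta subunit Pold4 rose by 1.68 (adjusted p = 0.00292). In lung against subcutaneous, 6 were higher (18.8%) and 3 lower (9.38%), with a median of 0.52. Over all genes the shares were 9.21% and 5.79%. Those of the list, which was not filtered on level, are near those of the genes above background (21.8% and 10.7%), so the counts say little about the list. Chtf18 was 1.69 higher and Top1, the topoisomerase that relaxes DNA ahead of the fork, 1.78 higher, while Atad5 and Dna2, also called, were not well measured: Atad5 was above background on 1 lung array and on no other, and Dna2 on none of the 9. Pold4 was 1.49 lower in lung than under the skin (adjusted p = 0.00652), opposite in sign to the catalytic subunit Pold1. The origin recognition subunits Orc2 and Orc4 were lower in lung than under the skin by differences of -1.06 and -1.04 (adjusted p = 0.00883 and 0.0134). They also fell from dish to lung, with differences of -1.20 and -1.11 (adjusted p = 0.00874 and 0.0176). In lung against dish 2 of the 32 fell (6.25%) and 3 rose (9.38%), against 3.68% and 11.9% of the genes above background. The largest call there was a rise, of Top1 by 2.67 (adjusted p = 0.00267), kept in all 17 settings. Atad5 and Dna2 also rose. Orc2 read 11.67 to 12.14 in lung and 12.81 to 13.29 on the other arrays, and Orc4 9.41 to 9.90 in lung and 10.40 or more elsewhere, without overlap. Orc1, of the same complex, was lowest under the skin.

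**Figure D5:**
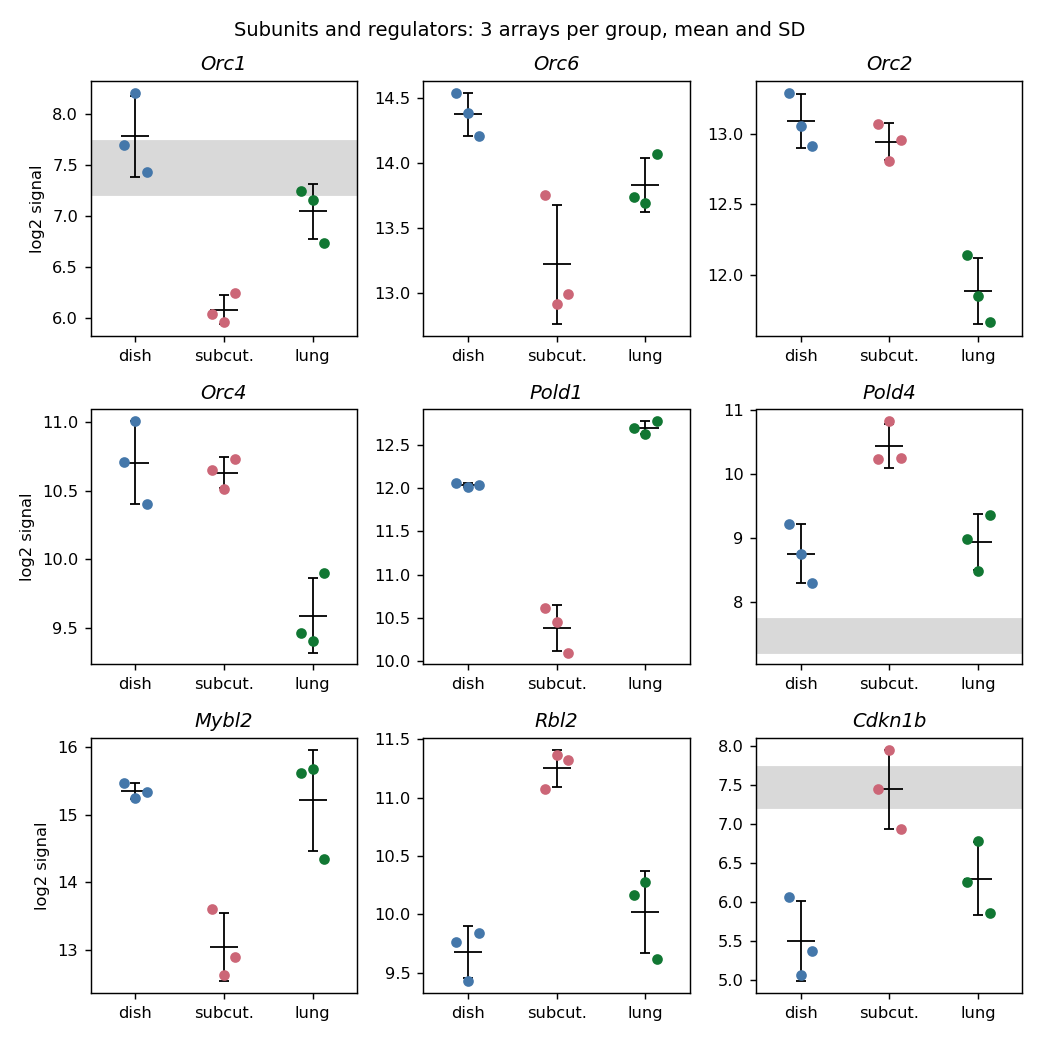
Log2 signals of subunits and regulators on the 3 arrays of each group, with the mean (horizontal line) and SD (bars). The grey band is the range over arrays of the 90th percentile of the negative controls, and axes differ and do not start at 0. Orc2 and Orc4 are lowest in lung where Orc1 and Orc6 are lowest under the skin, and Pold4 is highest under the skin where Pold1 is lowest.

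Of 19 other nucleotide supply genes, 6 fell (31.6%) and 0 rose from dish to subcutaneous, against 15.2% and 15% of the genes above background, and 13 were not called. In lung against subcutaneous 7 were higher (36.8%) and 1 lower (5.26%), against 21.8% and 10.7%, and 0 were called between lung and dish, where 4 had an unadjusted p under 0.05. Umps, which completes pyrimidine synthesis, read 11.68, 11.46 and 11.10 in the dish, 9.71, 9.39 and 9.03 under the skin and 11.81, 11.17 and 12.05 in the lung. It fell by 2.04 (adjusted p = 0.000527) and was 2.30 higher in lung than under the skin (adjusted p = 0.000386). The folate enzyme Shmt1 fell by 2.49 and was 1.97 higher in lung (adjusted p = 0.000627 and 0.00344). The nucleoside transporter Slc29a1 and the pyrimidine enzyme Dhodh were below background on all subcutaneous arrays, and were lower there than in the dish by at least 2.18-fold and 1.02-fold. Dctd, a deoxycytidylate deaminase, was 1.58 higher in lung than under the skin, and Ctps2, a CTP synthase, was the 1 lower, with a difference of -1.07 (adjusted p = 0.0296).

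Of 8 other chromatin and methylation genes, the maintenance methyltransferase Dnmt1 and the histone chaperone Nasp were 2.09 and 1.78 higher in lung than under the skin (adjusted p = 0.00357 and 0.00176). Rbbp4, the small CAF-1 subunit, went the other way from Chaf1a and Chaf1b, with -1.15 in lung against subcutaneous (adjusted p = 0.00585). Rbbp4 and the remodeller Hells fell from dish to lung, with differences of -1.11 and -1.34. From dish to subcutaneous 0 of the 8 were called, against 15.2% lower and 15% higher of the 6311 genes above background. An unadjusted p under 0.05 was found for 2 of the 8 and for 3012 of the 6311. In lung against subcutaneous 2 were higher (25%) and 1 lower (12.5%), near the 21.8% and 10.7% of those genes, so the counts say little about the list. Over all genes these shares were 9.21% and 5.79%. Between lung and dish 2 fell (25%), against 3.68%, and 0 rose, against 11.9%. Most of the list lay the other way from these 2, with 6 of the 8 higher in lung and a median of 0.73. An unadjusted p under 0.05 was found there for 6 of the 8 and for 2380 of the 6311.

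Of 16 E2F and pocket protein genes, 2 rose and 2 fell from dish to subcutaneous (12.5% each), and 3 were higher (18.8%) and 2 lower (12.5%) in lung than under the skin. The shares are near those of the 6311 genes above background (15% and 15.2%, then 21.8% and 10.7%), so the counts say little about the list. Over all genes the shares were 6.41% and 6.47%, then 9.21% and 5.79%. Mybl2, an activator of cell cycle genes, fell by 2.30 under the skin (adjusted p = 0.000897) and was 2.16 higher in lung (adjusted p = 0.00177). Rbl2, the pocket protein of resting cells, rose by 1.57 under the skin (adjusted p = 0.00111) and was lower in lung by a difference of -1.23 (adjusted p = 0.00596). E2f4 and E2f8 were 1.61 and 1.47 higher in lung than under the skin. Tfdp2, called lower in lung, was below background on all lung arrays and above it on 1 subcutaneous array, so no size is given. E2f5 rose by 1.07 and Lin54 fell by 0.83 from dish to subcutaneous. E2f1 read 7.67 to 8.27 over the 9 arrays and had no call. Between lung and dish 2 rose and 1 fell, and the calls for E2f4 (1.22), E2f5 (0.91) and Lin54 (-0.90) were kept in 7, 8 and 9 of 17 settings.

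Of 19 genes of S phase control and licensing turnover, 6 fell (31.6%) and 1 rose (5.26%) from dish to subcutaneous, against 15.2% and 15% of the genes above background. In lung against subcutaneous 5 were higher (26.3%) and 1 lower (5.26%), near the 21.8% and 10.7% of those genes. Cdc25a, the phosphatase that frees the cyclin E kinase, fell by 2.24 (adjusted p = 0.00634) and was 2.12 higher in lung (adjusted p = 0.00892). The checkpoint clamp gene Rad1 fell by 1.65 and was 1.97 higher in lung, and Dtl, part of a ligase that destroys Cdt1, fell by 1.27. The kinase inhibitor Cdkn1b was above background on 2 subcutaneous arrays and on no other, and was at least 1.01-fold higher there than in the dish (adjusted p = 0.00212). Its sister Cdkn1a, a p53 target, rose by 2.18 from dish to lung (adjusted p = 0.00386), with 12.10, 12.16 and 11.28 in the dish, 12.79, 13.78 and 12.38 under the skin and 14.36, 13.77 and 13.95 in the lung. Rad17 was called in both lung comparisons (1.26 and 1.29), though not under the other scalings, and Fbxw7, called higher in lung than under the skin, was below background on every array. In lung against dish 2 of the 19 rose and 2 fell, the latter being Ddb1 (-1.24) and Dtl (-0.91).

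Of 12 mitosis genes, set beside the replication genes, 8 fell (66.7%) and 0 rose from dish to subcutaneous, against 15.2% and 15% of the genes above background, with a median of -1.31. Of the 12, 6 were higher (50%) and 0 lower in lung than under the skin, against 21.8% and 10.7%, with a median of 0.95. Cdc20, an activator of the anaphase-promoting complex, fell by 2.00 and was 2.83 higher in lung (adjusted p = 0.000617 and 0.000144), and the kinase Plk1 fell by 1.69 and was 1.53 higher. The kinase Aurka fell by 2.34 under the skin and by 1.48 in lung (adjusted p = 0.000131 and 0.00699). Cenpe, a kinetochore motor, was at least 7.67-fold higher in lung than under the skin (adjusted p = 0.00242), with 11.77 and 11.85 in lung replicates 1 and 2 and 7.72 in replicate 3. Mki67, a marker of cycling cells, had the same split, with 14.34 and 14.84 in lung replicates 1 and 2, 9.49 in replicate 3 and 8.99 to 9.76 in the other groups. Its call in lung against subcutaneous (3.68, adjusted p = 0.0221) was lost when lung replicate 1 or 2 or any subcutaneous array was left out. Among the 43 replication genes, lung replicate 3 was also low for Rfc1, Chaf1a, Mcm10, Pole and Uhrf1, where replicates 1 and 2 exceeded it by 1.60, 1.53, 1.04, 0.80 and 0.72. For Pold1, Gmnn and Gins1 lung replicate 3 was the highest of the lung arrays, as it was for Cdc6. Over the 43 genes it was the lowest lung array in 19 and the highest in 16. These counts are near the shares of the genes above background (44.3% and 36.5%), so they show no pattern particular to the 43. Dnmt1 (11.33, 11.59 and 9.71 in lung), Mybl2 (15.61, 15.68 and 14.35), E2f4 (14.07, 14.24 and 13.06) and E2f8 (14.80, 15.09 and 13.72), all called higher in lung than under the skin, were lower on replicate 3 too. Umps, Shmt1, Dctd and Dctpp1, also called higher in lung, went the other way. Their highest lung values were on replicate 3 (12.05, 10.08, 14.81 and 14.03).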

How the data were processed

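GFP-labelled 3LL cells were profiled in 3 groups of 3 samples, with 1 array each. Per the labels' protocols, total RNA was column-purified and biotin was added to fragments of sense cDNA, which were read on whole-transcript arrays of 1 colour. The authors deposited log2 signals, used here as they stand (1.56 to 19.71). How the authors normalized them, with which software and on which build, is not given in the sources used here. Of 28846 features, 22206 are gene features, and a platform annotation table gave 19572 of these a symbol. Where a gene had several features (55 genes), its brightest on average was kept, leaving 19505 genes, with no filter on level.

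Groups and replicate numbers came from the sample titles. With R 4.3.3, limma 3.58.1 (lmFit, eBayes; 6 residual and 7.08 prior degrees of freedom) fitted 3 group means to all 9 arrays in 1 fit. P-values are two-sided and were adjusted by Benjamini-Hochberg across those 19505 genes, with a call at an adjusted p under 0.05. The number of arrays limits the precision, and an exact permutation test of 3 arrays against 3 could not go below p = 0.1. Nothing in the labels says that samples of a group come from separate cultures or animals, so p-values reflect only the spread between these samples, and that spread may be technical. A gene counted as not well above background in a group when none of its arrays exceeded the 90th percentile of that array's negative controls. A fold against such a group is given as "at least", from the brighter group's mean over the mean of that percentile on the dimmer group's arrays.

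Every measured gene of the 43 is named. Array values are given for those called between lung and subcutaneous and for the 5 with the largest differences in each other comparison. Of 6 other pathway lists, up to 4 called genes per comparison were to be named. Some lists have more, such as Pold4, Orc2 and Orc4 in lung against subcutaneous. Top2a, also called there, was 1.20 higher in lung, a larger difference than those of Orc2 and Orc4. The array values of Rpa1 and of some list genes, and E2f1, Rad17 and Ctps2, were added after their values were seen. The genes and the 11 other lists (150 genes, 141 measured) were chosen with earlier results of these data known. The fit was tested on simulated data. Alternatives were 2 other scalings, a filter on dim genes, the replicate number as a block, an intensity trend, array weights, RIN as a covariate, the mean over features and leaving out each array.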

Additional observations from a re-analysis of the deposited data

Results flagged for a closer look

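Pold1 was the 1 gene of the 43 whose arrays moved in opposite directions from the dish in the transplanted groups: all 3 lung arrays lay above every dish array and all 3 subcutaneous arrays below every dish array. The difference between these 2 shifts is the difference between lung and subcutaneous, 2.32 on the log2 scale, and limma's test of it gave an adjusted p of 9.61e-05. The shift of lung from the dish alone (0.67) did not pass (adjusted p = 0.1). The subcutaneous shift alone was -1.66 (adjusted p = 0.000383).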

How the results depend on the processing

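No result for the 43 genes reversed its direction while called under any alternative run. In lung against subcutaneous, 16 genes were higher and 0 lower as deposited, and with aligned upper quartiles 10 were higher and 2 lower (Pola1 and Ccne2). Leaving out 1 array gave 8 (without lung replicate 1) to 19 higher (without subcutaneous replicate 1), and 1 was lower (Ccne2) with dim genes left out and 1 with an intensity trend. In lung against dish, 4 were lower and 0 higher as deposited. The number lower was 11 after quantile normalization, 13 with aligned upper quartiles, 10 with dim genes left out, 7 with an intensity trend, 10 with array weights and 2 with RIN as a covariate, and 2 to 7 with 1 array left out. The number higher was 1 with dim genes left out (Pold1) and 2 with array weights (Gmnn and Pold1). In subcutaneous against dish, 23 were lower, 13 with RIN as a covariate, and 21 to 25 with 1 array left out. The causes were not tested, beyond the fewer arrays or genes that an alternative uses by construction. Calls kept in every setting run numbered 8 of 16 (Cdc6, Fen1, Gins1, Gmnn, Mcm5, Pold1, Pole and Rfc4), 2 of 4 (Ccne2 and Rfc5) and 12 of 23 (Cdc6, Chaf1b, Fen1, Mcm10, Mcm5, Orc1, Pold1, Pole, Rfc5, Rpa2, Rrm2 and Uhrf1). Nothing in the labels says that the replicate numbers pair the arrays. Same-numbered deviations had correlations of -0.057 to 0.085, which cannot show whether samples were handled together. With the replicate block, 17 genes were higher in lung than subcutaneous, 5 lower in lung than dish and 24 lower in subcutaneous than dish. Over all genes, calls in lung against subcutaneous numbered 1797 higher and 1130 lower as deposited, 1124 and 2936 with aligned upper quartiles, and 950 and 526 without lung replicate 1. Those in lung against dish numbered 938 and 384, against 565 and 1787 with aligned upper quartiles and 390 and 124 without dish replicate 2. Those in subcutaneous against dish numbered 1251 and 1262, against 674 and 606 with RIN as a covariate. Genes near background (Orc1, Cdc45, Gins3, Rfc3 and Tk1) were limited by their signal, not by the spread alone.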
